A study of Mus musculus with 4 samples.

Results

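The 4 mouse p38 kinase genes and 6 genes for kinases directly before and after them in the pathway were followed, 10 genes of the 54152 symbols in the deposited expression table. They were chosen by name: Mapk14, Mapk11, Mapk12 and Mapk13 for the p38 kinases, Map2k3 and Map2k6 for their activators, and Mapkapk2, Mapkapk3, Mapkapk5 and Rps6ka5 for kinases they activate. Poly-A RNA was sequenced from whole uteri taken from C57 mice at pregnancy day 4. Of the 4 libraries, 2 carry the genotype P38α ff and 2 the genotype P38α dd, and ff and dd stand below for the libraries labelled so. The series title speaks of wild-type and P38α knockout uteri, so the comparison asks what differs where the gene for p38α, Mapk14, was targeted. The labels used here do not give the deleted part of Mapk14, what drove the deletion, the age of the mice, whether uteri were pooled, or whether the replicates are separate animals. The libraries held 24619850 to 32451670 counts on genes. The p-values therefore measure only the spread between these samples, which may be technical.

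p38 kinases are protein kinases that respond to stress, cytokines and hormones. MKK3 (Map2k3) and MKK6 (Map2k6) switch them on by phosphorylating a threonine and a tyrosine, and the active kinases then phosphorylate transcription factors and further kinases. MK2 (Mapkapk2) and MK3 (Mapkapk3) act on proteins that control the stability and translation of messenger RNAs, while MSK1 (Rps6ka5) acts on chromatin and CREB in the nucleus. On day 4 the mouse uterus is under progesterone and a small rise of estrogen, and it is about to become receptive to the embryo.

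Of the 10 genes, 3 rose and 1 fell in the dd libraries. Mapk13 (p38δ) rose 2.21-fold, Map2k6 2.57-fold and Mapkapk3 2.05-fold, while Rps6ka5 fell to 0.529 of the ff level. Mapk14 itself was not lower in dd. All 10 genes passed the filter on low counts in edgeR. Over all 18530 tested genes, 8.39% changed at an adjusted p under 0.05, with 4.52% higher and 3.86% lower in dd. The 4 of 10 genes called here stand beside that share. The 10 genes were chosen with earlier results of these data known, so this is not a test of the list. A larger share of all genes passes at an unadjusted p under 0.05, and it was not counted here. DESeq2 called 3001 of the 18530 genes. With the library size alone as scaling, the whole-table calls turned from 838 higher and 716 lower to 751 higher and 1020 lower. The members were 3 higher and 1 lower under both scalings. Each of these 4 calls was lost when at least 1 library was left out, as given below for each gene. Without ff replicate 1, or without dd replicate 2, none of the 10 genes was called by edgeR.

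The upstream sequences of the 4 genes that changed are shown beside that of Mapk14, since these are the genes the results turn on. They come from RefSeq (GRCm38.p6, the mm10 assembly) and run from 250 to 51 bases before the annotated start, 5′ to 3′ on the strand of the gene. Where RefSeq lists several starts, the one farthest upstream was taken. All 10 genes had an entry. Among the genes shown, the RefSeq starts of Mapk14, Mapk13 and Rps6ka5 lie inside the span of the GENCODE gene model. The start of Rps6ka5 is farthest inside, at base 100725120, where its model on the minus strand begins at 100726983. The windows are chr17:28691092-28691291 for Mapk14 (plus strand), chr17:28769067-28769266 for Mapk13 (plus), chr11:110398852-110399051 for Map2k6 (plus), chr9:107289928-107290127 for Mapkapk3 (minus) and chr12:100725171-100725370 for Rps6ka5 (minus). Capitals mark every match, on either strand, to an AP-1 site (TGANTCA), a CRE half-site (TGACG), an estrogen response half-site (GGTCA), a progesterone receptor half-site (TGTTC), a GC box (GGGCGG) or a TATA motif (TATAAA).
Mapk14: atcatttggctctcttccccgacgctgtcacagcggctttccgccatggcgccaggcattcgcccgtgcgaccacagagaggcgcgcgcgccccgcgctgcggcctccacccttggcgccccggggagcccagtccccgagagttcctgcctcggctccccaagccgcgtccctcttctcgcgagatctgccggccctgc
Mapk13: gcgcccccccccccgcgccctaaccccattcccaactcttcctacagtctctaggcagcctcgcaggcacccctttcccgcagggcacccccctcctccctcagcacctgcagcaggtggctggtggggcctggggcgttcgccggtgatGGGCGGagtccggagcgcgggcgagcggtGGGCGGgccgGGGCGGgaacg
Map2k6: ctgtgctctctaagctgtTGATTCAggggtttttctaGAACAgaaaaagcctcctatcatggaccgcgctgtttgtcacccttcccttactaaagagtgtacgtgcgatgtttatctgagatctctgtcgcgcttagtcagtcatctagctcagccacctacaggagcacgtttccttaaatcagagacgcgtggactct
Mapkapk3: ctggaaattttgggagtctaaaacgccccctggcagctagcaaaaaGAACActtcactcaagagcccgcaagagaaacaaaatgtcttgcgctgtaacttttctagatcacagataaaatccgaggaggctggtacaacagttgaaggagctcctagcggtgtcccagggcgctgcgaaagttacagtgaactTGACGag
Rps6ka5: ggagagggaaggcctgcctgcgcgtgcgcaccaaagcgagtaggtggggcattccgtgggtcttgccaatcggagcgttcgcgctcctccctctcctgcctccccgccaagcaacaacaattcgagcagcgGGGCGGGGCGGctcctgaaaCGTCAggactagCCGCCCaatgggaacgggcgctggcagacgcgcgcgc

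In these windows Mapk13 held 3 GC boxes, which begin 100, 71 and 61 bases before the start. Rps6ka5 also held 3, of which 2 overlap, and a CRE half-site at 99 bases. Map2k6 had an AP-1 match at 232 bases and a progesterone receptor half-site at 213 bases. Mapkapk3 had a progesterone receptor half-site at 204 bases and a CRE half-site at 57 bases. The Mapk14 window held none of the 6 motifs. A GC box was present in 5 of the 10 genes' windows and in 24.6% of 32851 RefSeq windows of the same length. The progesterone receptor half-site was in 2 of 10 and in 30.8% of all windows, the CRE half-site in 4 of 10 and 12.7%, and the AP-1 site in 1 of 10 and 5.57%. Neither the estrogen response half-site (29.4% of all windows) nor the TATA motif (9.14%) was in any of the 10. No motif of this set was in all 3 genes that rose, while Map2k6 and Mapkapk3 both held the progesterone receptor half-site. Base composition differed as well, with 74.5% G and C in the Mapk13 window, 71.5% in Mapk14, 68% in Rps6ka5, 48% in Map2k6 and 48.5% in Mapkapk3, against a median of 51.5% over all windows.

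Levels of different genes were compared as FPKM, which divides by gene length. In the ff libraries Mapkapk2 was the most abundant at 36.4 ± 2.29 FPKM (SD, n = 2), above 92.1% of tested protein-coding genes. Mapk14 followed at 20.5 ± 0.904 FPKM. Mapk11 (13.8 ± 0.786 FPKM) and Map2k3 (13.5 ± 1.47 FPKM) did not differ beyond their spread. Mapk12 at 5.86 ± 0.494 FPKM, Map2k6 at 5.15 ± 1.52 FPKM and Mapkapk3 at 5.08 ± 0.353 FPKM lay together, and Mapk13 was lowest of the p38 kinases at 4.39 ± 0.441 FPKM. Rps6ka5 had 2.51 ± 0.328 FPKM and Mapkapk5 0.562 ± 0.169 FPKM. In the dd libraries Mapkapk2 and Mapk14 were again first and second, at 35.9 ± 0.0142 and 24.9 ± 1.50 FPKM. Map2k6 at 13.3 ± 1.03 FPKM then lay beside Mapk11 at 14.4 ± 1.57 FPKM, and Mapkapk3 (10.4 ± 2.52 FPKM) and Mapk13 (9.71 ± 1.40 FPKM) stood above Mapk12 (6.52 ± 0.617 FPKM).

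**Figure D1:**
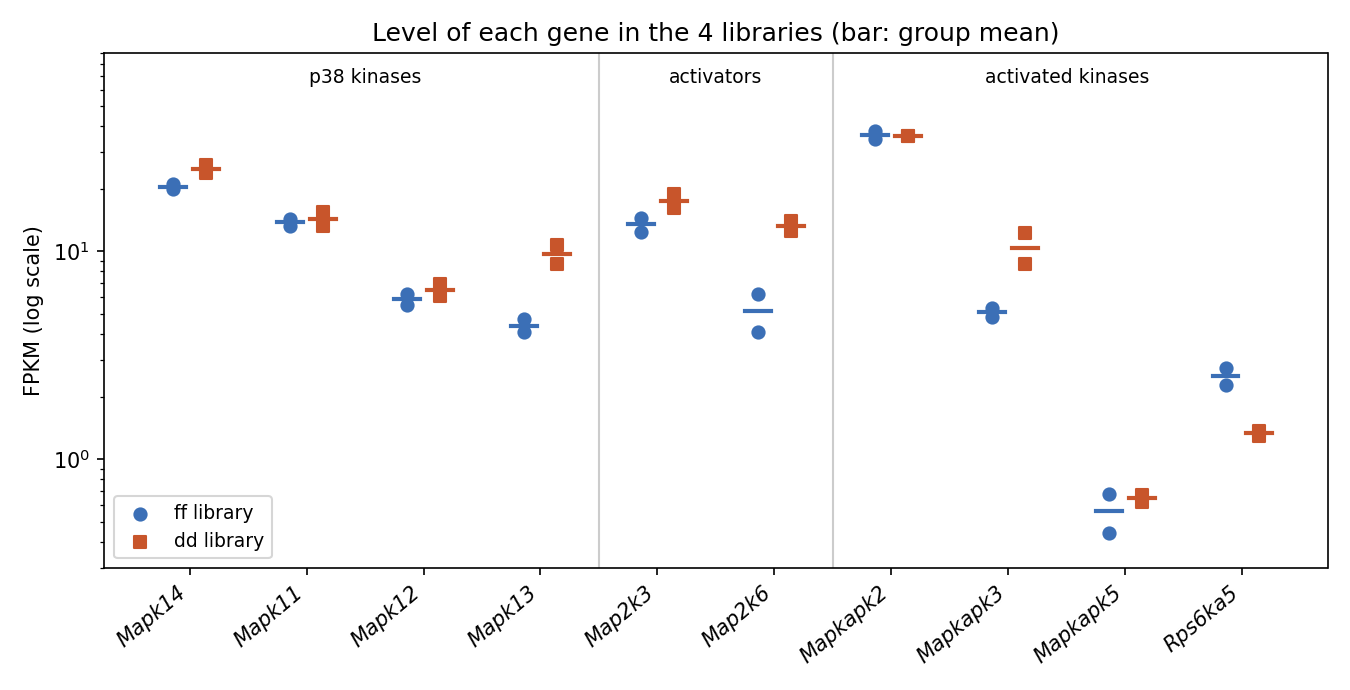
FPKM of the 10 genes in each library on a log axis, with circles for the 2 ff libraries, squares for the 2 dd libraries and a bar at each group mean. Mapk13, Map2k6 and Mapkapk3 lie higher in both dd libraries than in both ff libraries, and Rps6ka5 lies lower.

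Mapk14, the targeted gene, encodes p38α (chromosome 17, 28691329 to 28748406, plus strand, mm10). It was at 92.3 and 87.0 CPM in the ff libraries and 105.0 and 113.2 CPM in the dd libraries, where CPM is the count divided by the library size after TMM scaling, times 1e+06. Both dd values were above both ff values. The log2 change of dd over ff was 0.28 (95% interval 0.05 to 0.52, edgeR adjusted p = 0.12), which did not pass. It stayed between 0.20 and 0.34 over 13 other settings and passed in none. A sum over the whole gene does not show whether some exons are missing, and this table holds 1 value per gene and library. Directions given here are thus those of the labels, without a check by the targeted gene.

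Mapk13 encodes p38δ, a form known from epithelia and other surfaces, and was the 1 p38 kinase that passed the test. It had 12.8 and 14.8 CPM in ff and 27.6 and 33.6 CPM in dd, so the lower dd library was well above the higher ff library. Its log2 change was 1.15 (SE 0.156, 95% interval 0.74 to 1.55, edgeR adjusted p = 0.0275). Leaving out ff replicate 1 ended the call (log2 1.05, adjusted p = 0.094), as did leaving out dd replicate 2 (log2 1.00, adjusted p = 0.0726). In the authors' deposited table its fold is 2.21, at p = 0.0145 before any adjustment.

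Mapk11 (p38β) and Mapk12 (p38γ), the other two p38 kinases, had groups that overlapped. Mapk11 was at 38.2 and 41.5 CPM in ff and 38.5 and 44.5 CPM in dd, with a log2 change of 0.06 (95% interval −0.23 to 0.36). Mapk12, known for its role in muscle, was at 21.0 and 23.7 CPM in ff and 23.3 and 26.3 CPM in dd, with a log2 change of 0.15 (95% interval −0.19 to 0.49). Neither passed (edgeR adjusted p = 0.759 and 0.486). With the library size alone as scaling the log2 change of Mapk11 was −0.02, and without dd replicate 2 it was −0.05. These intervals leave room for a change of up to 1.28-fold in Mapk11 and 1.41-fold in Mapk12.

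Of the activators, Map2k6 changed and Map2k3 did not pass. Map2k6 encodes MKK6, which activates all forms of p38, and it had the largest change of the 10 genes. It was at 14.0 and 21.5 CPM in ff and 48.5 and 42.9 CPM in dd. Both dd libraries lay far above both ff libraries, and the ff libraries themselves differed more than the dd libraries. The log2 change was 1.36 (SE 0.225, 95% interval 0.78 to 1.95, edgeR adjusted p = 0.0364). Its call was kept without ff replicate 2 (log2 1.70, adjusted p = 0.0203) and lost without ff replicate 1 (1.09, 0.0669), dd replicate 1 (1.28, 0.0883) or dd replicate 2 (1.45, 0.0812). Map2k3 encodes MKK3 and was at 48.1 and 41.4 CPM in ff and 53.8 and 62.6 CPM in dd. Both dd values lay above both ff values, and the log2 change of 0.38 (95% interval 0.05 to 0.71) had an edgeR adjusted p of 0.131.

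Among the activated kinases, Mapkapk3 rose and Rps6ka5 fell. Mapkapk3 had 29.5 and 26.8 CPM in ff and 48.2 and 67.4 CPM in dd, with the dd libraries further apart than the ff libraries. Its log2 change was 1.04 (SE 0.183, 95% interval 0.56 to 1.51, edgeR adjusted p = 0.0402). Removing ff replicate 1 (log2 1.11, adjusted p = 0.123), ff replicate 2 (0.97, 0.0967) or dd replicate 2 (0.78, 0.0793) ended the call, as did testing log2(FPKM + 0.5) values with limma (0.95, 0.0623). Mapkapk2, for the closely related MK2, was nearly level at 115.6 and 106.1 CPM in ff and 109.8 and 108.6 CPM in dd. Its log2 change was −0.02 (95% interval −0.25 to 0.21, edgeR adjusted p = 0.896), and without ff replicate 1 it was 0.04.

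Rps6ka5 encodes MSK1 and was the only member that fell. It had 27.2 and 32.8 CPM in ff and 16.4 and 15.3 CPM in dd, so the groups were well apart. The log2 change was −0.92 (SE 0.142, 95% interval −1.29 to −0.55, edgeR adjusted p = 0.0325). The call was lost when any 1 of the 4 libraries was left out, with log2 changes between −1.05 and −0.78 and adjusted p between 0.0654 and 0.100. It was also lost on log2(FPKM + 0.5) values with limma (−0.72, adjusted p = 0.0658). In the authors' deposited table the folds are 0.529 for Rps6ka5 (p = 0.0491 before adjustment), 2.57 for Map2k6 (p = 0.00371) and 2.05 for Mapkapk3 (p = 0.026). Rps6ka4, the gene of the related kinase MSK2, did not pass, at 30.7 and 25.1 CPM in ff and 23.6 and 25.1 CPM in dd (log2 −0.20, edgeR adjusted p = 0.397). The ratio of Rps6ka5 to Rps6ka4 in FPKM was 0.267 and 0.393 in ff and 0.21 and 0.184 in dd.

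Mapkapk5, the gene of MK5 or PRAK, was measured on few counts, namely 47 and 68 for the ff pair and 51 and 60 for the dd pair. Its groups overlapped, and the log2 change of 0.20 (95% interval −0.62 to 1.02) did not pass (edgeR adjusted p = 0.709). Of its 3195 annotated exon bases, 56.5% are shared with Adam1a and 56.4% with Gm42878, genes on the same strand. Adam1a counts were 159 and 108 for ff, then 92 and 104 for dd. The sources used here do not say how reads over shared exons were assigned, so the low level of Mapkapk5 is uncertain. None of the 10 genes overlaps an annotated gene on the opposite strand, and besides Mapkapk5 only Rps6ka5 shares exon bases with another gene (1.5%).

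**Figure D2:**
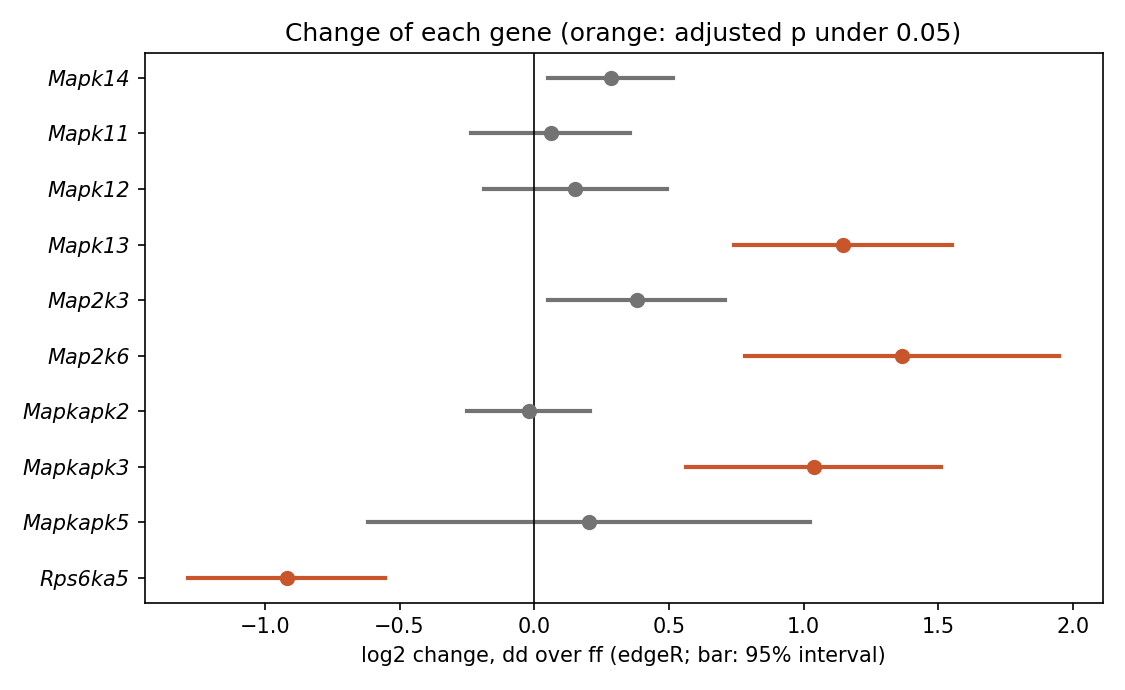
Log2 change of dd over ff for the 10 genes from edgeR, with 95% intervals and with genes at an adjusted p under 0.05 in orange. The intervals of Mapk13, Map2k6 and Mapkapk3 lie above 0.56 and that of Rps6ka5 below −0.55.

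In 5 of the 10 genes both dd values were above both ff values, and in 1 gene both were below. The same held for 31.6% and 31.3% of all tested genes. In a list of 10 genes, chosen with earlier results of these data known, no excess is read from these counts. Besides the 3 genes that rose, these 5 are Mapk14 and Map2k3. The median log2 change of the 10 was 0.24, beside 0.0022 over all tested genes.

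In each kinase family the gene that had risen made up a larger share in both dd libraries than in both ff libraries. These shares rest on the same libraries and genes as the changes above. Mapk13 made up 9.28% and 10.4% of the summed FPKM of the 4 p38 kinases in ff, and 16.8% and 18.1% in dd. Mapk14 supplied 48.1% and 44.0% in ff and 45.9% and 43.9% in dd. Thus the Mapk14 shares overlapped between groups and the Mapk13 shares did not. The share of Mapk11 was lower in both dd libraries, at 25.5% and 26.2% against 30.1% and 31.8%. That of Mapk12 was lower too, at 11.7% and 11.8% against 12.6% and 13.8%. The FPKM of Mapk11 and of Mapk12 overlapped between the groups. Summed over the 4 kinases, the level was 43.9 and 45.1 FPKM in ff and 51.9 and 59.1 FPKM in dd. The ratio of Mapk13 to Mapk14 in FPKM was 0.193 and 0.237 in ff and 0.366 and 0.412 in dd. Two-sided exact permutation tests of the shares of Mapk13, Mapk11 and Mapk12 and of this ratio gave p = 0.333, the smallest that 2 libraries against 2 allow.

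Among the activators, Map2k6 supplied 21.9% and 33.3% of the summed FPKM in ff and 46.4% and 39.8% in dd, the rest being Map2k3. The sum of both was 18.6 and 18.7 FPKM in ff and 30.1 and 31.5 FPKM in dd. Mapkapk3 supplied 12.2% and 12.0% of the FPKM of Mapkapk2, Mapkapk3 and Mapkapk5 in ff, against 19.1% and 25.1% in dd. Both Map2k6 and Mapkapk3 thus had a larger share in both dd libraries than in both ff libraries, and the share of Mapkapk5 overlapped (1.01% and 1.69% in ff, 1.49% and 1.28% in dd). Exact permutation tests of the shares of Map2k6 and Mapkapk3 again gave the smallest possible p of 0.333.

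**Figure D3:**
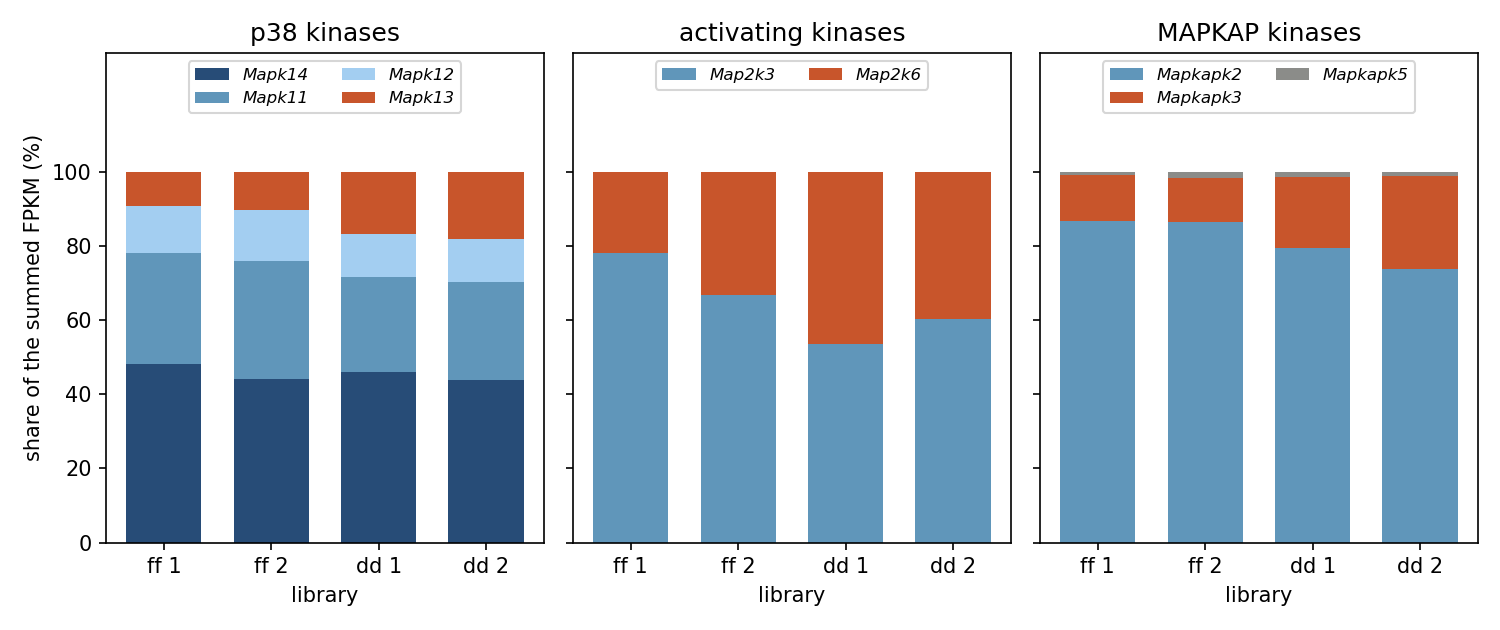
Share of the summed FPKM from each gene, by library, for the p38 kinases, their activators and the MAPKAP kinases. The orange segments are Mapk13 (9.28% and 10.4% in ff, 16.8% and 18.1% in dd), Map2k6 and Mapkapk3, and each is larger in both dd libraries.

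Cell type markers moved in the same libraries. Over all 18530 tested genes edgeR called 4.52% higher and 3.86% lower in dd, and the marker counts below stand beside these shares. DESeq2 called 3001 of the same genes, and the share of all genes at an unadjusted p under 0.05 was not counted. The summed level of 16 epithelial markers was 1471 and 1693 CPM in ff and 3310 and 3861 CPM in dd, and 7 of the 16 rose in edgeR's test, with all 16 log2 changes above 0 and a median of 0.97. Krt8, Krt18 and Cdh1 were among these (log2 1.55, 0.97 and 0.96). Leaving out ff replicate 1 or dd replicate 2 left 1 epithelial marker called, and leaving out dd replicate 1 left 4. The sum of 10 endothelial markers was 1686 and 1426 CPM in ff and 765.3 and 779.8 CPM in dd, with 9 of 10 lower, among them Tek, Tie1 and Cdh5 (log2 −1.47, −0.96 and −1.36). With 1 library left out, between 1 and 7 of the endothelial markers were lower. Of 10 stromal markers 3 were lower, namely Pdgfra, Pdgfrb and Vim (log2 −0.97, −0.89 and −0.93), and the sum was 16034 and 14087 CPM in ff and 11424 and 8163 CPM in dd. Without ff replicate 2 the stromal calls were 3, and without any other single library none passed edgeR (at an unadjusted p under 0.05 with all libraries 4 were lower, and DESeq2 called 4). Of 8 smooth muscle markers none passed edgeR or DESeq2, and none had an unadjusted p under 0.05 (summed 7902 and 6685 CPM in ff, 10831 and 6135 CPM in dd). Markers of epithelium, stroma, endothelium and muscle were thus all present, and no listed marker was at 0 in every library. In bulk RNA fewer cells of a type and less RNA per cell cannot be told apart.

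Other markers moved too, and their counts also stand beside 4.52% of all tested genes called higher and 3.86% called lower. Of 6 macrophage markers 3 fell (summed 201.8 and 216.5 CPM for ff, 125.4 and 116.8 CPM for dd), and of 5 plasma and B cell markers 3 rose (112.7 and 119.4 CPM, then 506.4 and 990.6 CPM). Of 4 oviduct markers 2 rose (34.4 and 33.5 CPM, then 132.2 and 137.2 CPM), and of 5 red cell markers 4 rose (69.1 and 68.0 CPM, then 237.5 and 305.4 CPM). The remaining red cell marker, Hba-a2, named after its value was seen, went the other way. It was not called in the main edgeR fit, but was called lower in other fits, among them the fit without a filter on low counts. Its log2 change was −2.62, against 2.62 for Hba-a1, and lay between −5.64 and −1.66 with 1 library left out. With 1 library left out fewer of the macrophage, plasma and B cell, red cell and oviduct markers kept their calls. Of 5 gland markers 1 fell (246.4 and 120.0 CPM, then 120.8 and 107.9 CPM), so ff replicate 1 stood apart in that sum. The gland marker that fell, Spink1, was not called without dd replicate 1 (edgeR adjusted p = 0.078) or dd replicate 2 (0.0948), and without ff replicate 2 the gland calls were 1 higher and 3 lower. Their part in the results on the 10 genes was not tested.

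Set against the epithelial markers, Mapk13 was nearly level, with a ratio of dd to ff of 0.975. It had 8.72 and 8.76 counts per 1000 epithelial marker counts in ff, and 8.35 and 8.69 in dd. Map2k6 had 9.53 and 12.7 in ff and 14.6 and 11.1 in dd, and Mapkapk3 had 20.1 and 15.9 in ff and 14.6 and 17.5 in dd, so the groups overlapped for both. Keratins made up 30.2% and 33.4% of the epithelial marker counts in ff and 46.2% and 47.8% in dd. Without the 4 keratins, Mapk13 had 12.5 and 13.2 counts per 1000 in ff and 15.5 and 16.7 in dd, and Map2k6 had 13.7 and 19.1 in ff and 27.2 and 21.3 in dd. On that scale both genes were higher in both dd libraries. Mapkapk3 still overlapped, with 28.7 and 23.8 in ff and 27.1 and 33.4 in dd. Rps6ka5 had 16.1 and 23.0 counts per 1000 endothelial marker counts in ff and 21.5 and 19.6 in dd, and 1.70 and 2.33 per 1000 stromal marker counts in ff and 1.44 and 1.88 in dd, overlapping on both scales. Each of these marker lists moved in the same direction as the gene set against it. Against lists that moved the other way the groups lay apart. Per 1000 endothelial marker counts Mapk13 had 7.61 and 10.4 in ff and 36.1 and 43.1 in dd. Map2k6 had 8.32 and 15.1, then 63.3 and 55.1, and Mapkapk3 17.5 and 18.8, then 63.0 and 86.4. Rps6ka5 had 18.5 and 19.4 counts per 1000 epithelial marker counts in ff and 4.96 and 3.97 in dd. These ratios are descriptions, and the part of cell make-up in the changes was not tested.

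**Figure D4:**
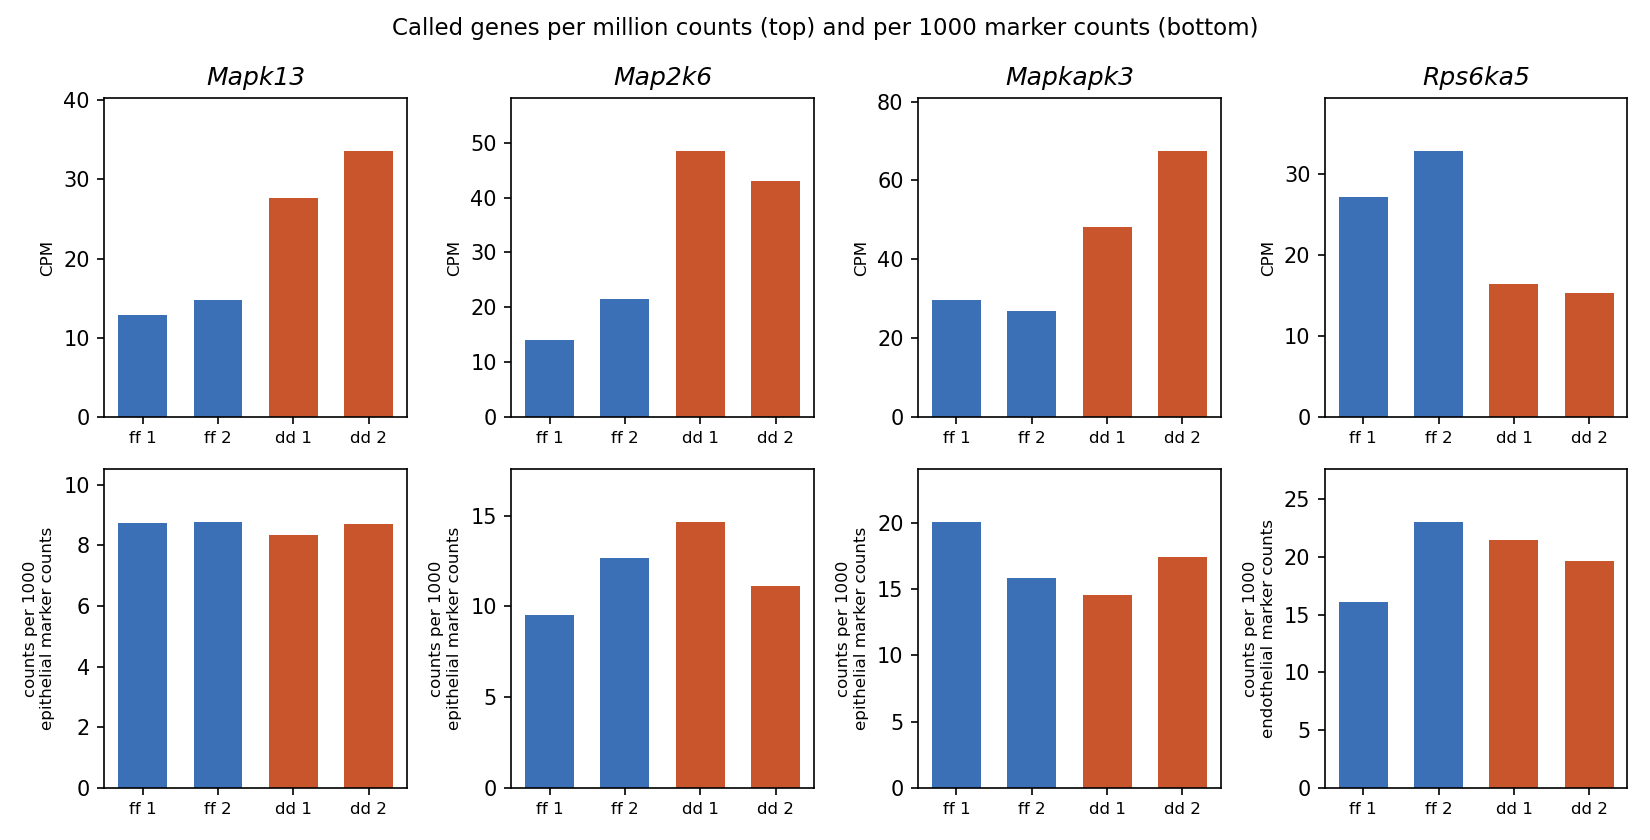
The 4 genes that changed, as CPM per library in the top row and as counts per 1000 marker counts in the bottom row, using epithelial markers for Mapk13, Map2k6 and Mapkapk3 and endothelial markers for Rps6ka5. Blue bars are ff and orange bars dd libraries. In the bottom row Mapk13 is between 8.35 and 8.76 in all 4 libraries, and the groups of the other genes overlap. Each marker list shown moved in the same direction as the gene set against it.

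The p38 genes lie in pairs. Mapk13 (chromosome 17, 28769297 to 28780233) starts 20.9 kb after the end of Mapk14 on the same strand. Of 24 tested genes within 500 kb of Mapk14, Mapk13, itself a member, was the only call, and the median log2 change was −0.08. The share called over all tested genes, 8.39%, stands beside this count and beside the calls around Mapk11 given next. Mapk12 (chromosome 15, 89130584 to 89140703) and Mapk11 (89142486 to 89149628) are 1.78 kb apart on the minus strand. Of 30 tested genes within 500 kb of Mapk11, the synaptic scaffold gene Shank3 was lower (log2 −1.17, edgeR adjusted p = 0.0222) and Zbed4 higher (log2 0.66, adjusted p = 0.047), with a median of −0.04. The other members lie apart from each other and from these pairs: Map2k3 (60932033 to 60952811) and Map2k6 (110399122 to 110525522) on chromosome 11, Mapkapk2 on chromosome 1, Mapkapk5 on 5, Mapkapk3 on 9 and Rps6ka5 on 12.

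Other genes of the pathway passed the test in a share near that of all genes, 6.76% beside 8.39%. Of 78 genes in 5 lists, 74 were tested, and 2 rose and 3 fell in edgeR's test, with a median log2 change of −0.04. The number called ranged from 0 to 8 with 1 library left out, with 0 calls when ff replicate 1 was absent, 1 for dd replicate 1, 2 for dd replicate 2 and 8 for ff replicate 2. DESeq2 called 5 higher and 10 lower, beside 1584 higher and 1417 lower of all 18530 tested genes. The DESeq2 counts of the single lists below stand beside that whole-table count. Their counts at an unadjusted p under 0.05 have no such background, because the share over all genes was not counted.

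Upstream of the activators, 1 of 25 kinases and adaptors rose and 1 fell. Map3k1, for the kinase MEKK1, was at 44.0 and 44.9 CPM in ff and 67.6 and 62.4 CPM in dd (log2 0.55, edgeR adjusted p = 0.0344). Map3k6, a relative of the stress-sensing kinase ASK1, was at 34.8 and 27.0 CPM in ff and 15.0 and 13.8 CPM in dd (log2 −1.10, adjusted p = 0.0313). Map3k6 kept its call only without ff replicate 2 (adjusted p = 0.0284, and 0.0763 to 0.0994 without another library), and Map3k1 lost it without any 1 library (adjusted p between 0.0782 and 0.13). Map2k4, for MKK4, which acts on JNK and can act on p38, did not pass (log2 0.11, adjusted p = 0.523). Of 12 phosphatases that can switch p38 off, edgeR called none, while 2 higher and 2 lower had an unadjusted p under 0.05 and DESeq2 called 1 higher and 2 lower. With ff replicate 2 or dd replicate 2 left out, edgeR called 1 phosphatase higher each time, Dusp16 and Ptpn5, named after their values were seen. Dusp1, an inducible phosphatase of p38 and JNK, was at 36.5 and 24.4 CPM in ff and 13.5 and 19.0 CPM in dd (log2 −0.90, edgeR adjusted p = 0.105).

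Among 22 further substrates, 2 fell and none rose in edgeR's test (1 higher and 4 lower at an unadjusted p under 0.05, and 1 higher and 3 lower by DESeq2). Zfp36l1, an RNA-binding protein that promotes messenger RNA decay, was at 240.3 and 227.7 CPM in ff and 159.0 and 161.5 CPM in dd (log2 −0.55, adjusted p = 0.0357). Mef2a, a transcription factor phosphorylated by p38, was at 191.8 and 223.8 CPM in ff and 129.2 and 141.6 CPM in dd (log2 −0.62, adjusted p = 0.0464). Both calls were lost without any 1 library, with adjusted p between 0.0633 and 0.124 for Zfp36l1 and between 0.0862 and 0.143 for Mef2a. Without ff replicate 2 the 1 call in this list was Mknk2, a kinase of translation factor eIF4E, in the higher direction (log2 0.78, adjusted p = 0.0482), also named after its value was seen. Atf2, a transcription factor phosphorylated by p38, had a log2 change of −0.02 (adjusted p = 0.884). Zfp36, for the decay factor tristetraprolin, had −0.31 (0.338). Hspb1, a small heat shock protein phosphorylated by MK2, had 0.51 (0.253), and none of these passed.

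Transcripts known to be under MK2 control were represented by 7 tested genes of 11, of which Ptgs2 alone was called. Ptgs2 encodes the inducible prostaglandin synthase COX-2 and was at 2.70 and 2.86 CPM in ff and 12.3 and 26.2 CPM in dd. Its log2 change was 2.79 (95% interval 1.74 to 3.85, edgeR adjusted p = 0.0301), or 2.15 without dd replicate 2. With ff replicate 1 left out its adjusted p was 0.112, and with ff replicate 2 left out it was 0.0656, so the call was lost. In the fit without ff replicate 2 the list instead held 1 lower gene, Il1a (log2 −3.86, adjusted p = 0.0274), which did not pass the filter with all libraries and is named after its value was seen. The median of the list was −0.26. Transcripts known to be induced through MSK kinases were all below 0 in dd, with a median log2 change of −1.47 over 8 genes. None passed edgeR's test, while 5 had an unadjusted p under 0.05, DESeq2 called 4 lower, and 4 were called lower without ff replicate 2. Their log2 changes ran from −2.35 for Fos to −0.02 for Nr4a2, named here as the ends of the range after their values were seen. The summed level was 457.2 and 272.8 CPM in ff and 153.8 and 261.4 CPM in dd, so ff replicate 2 and dd replicate 2 were close. The part of the endothelial, stromal and epithelial marker shifts in these values was not tested.

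**Figure D5:**
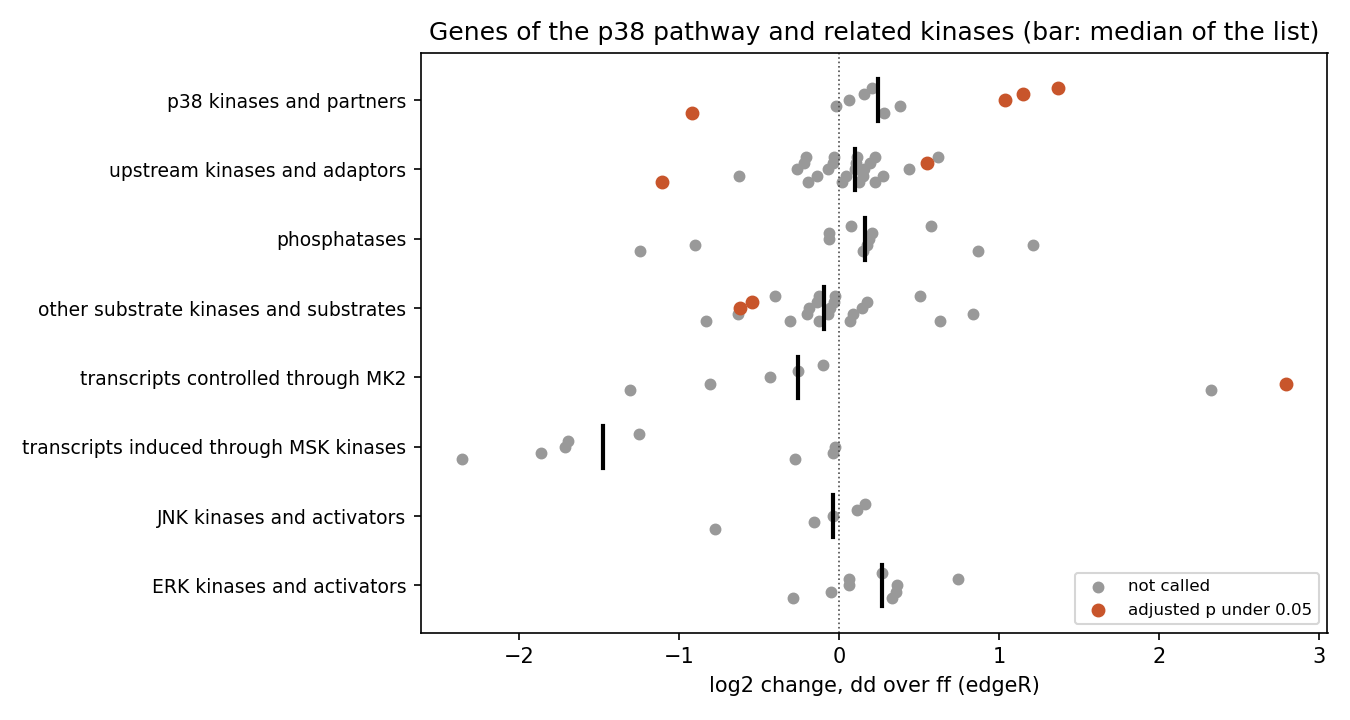
Log2 change of dd over ff for each tested gene of the pathway lists, the 10 p38 kinases and partners, and the JNK and ERK kinases, with called genes in orange and a bar at each median. The MSK list has the lowest median, −1.47, without a called gene.

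The JNK and ERK kinases, the other MAP kinase families, were measured the same way. Of 5 JNK kinases and activators none was called by edgeR, with a median log2 change of −0.04 and a range from −0.78 to 0.16. Of 9 ERK kinases and activators none was called either, with a median of 0.27 and a range from −0.29 to 0.74. At an unadjusted p under 0.05 there was 1 lower JNK gene, and 4 higher and 1 lower ERK genes. More than the 8.39% of all genes called after adjustment pass that looser threshold, and their share was not counted here. DESeq2 called 2 ERK genes higher, beside 3001 of all 18530 tested genes. Whether these families differ from the p38 family was not tested.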

How the data were processed

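The tools the authors name, per the submitters' processing notes, are STAR and edgeR, and the build is mm10. The read counter, the annotation and any use of strand: not given in the sources used here. The deposited table holds whole-number counts per gene, rescaled counts (a signal column the authors named adj, used only to check the FPKM), FPKM per the file headers (RPKM in the design text), and the authors' fold (a ratio of dd over ff) and unadjusted p-value. The authors' FPKM equalled rescaled counts divided by the GENCODE M21 exon length within 1% for 99.9% of genes with 1000 counts or more.

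In these libraries, of 24619850 to 32451670 counts, 3 counts came to 0.0901 to 0.127 CPM. Replicates differed by more than sampling noise (chi-square per degree of freedom 35.3 in ff and 36.0 in dd). Counts were compared with edgeR 4.0.16 (R 4.3.3): TMM, filterByExpr, quasi-likelihood test, Benjamini-Hochberg over 18530 genes, calls at an adjusted p under 0.05. The fit held all 4 libraries and no block. Other settings are in the closing part, using DESeq2 1.42.0 and limma 3.58.1. Fits that leave out 1 library assume that the single library remaining in a group varies as the other group does.

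The members and lists were chosen with earlier results of these data known. Named were the 10 members, called genes of the pathway lists, 6 set genes (Rps6ka4, Map2k4, Dusp1, Zfp36, Atf2, Hspb1), called neighbours within 500 kb of Mapk14 or Mapk11, and up to 3 called genes per marker or related list.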

Additional observations from a re-analysis of the deposited data

How the results depend on the processing

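As reported, 1554 genes (838 higher, 716 lower), 4 of the 10 members and 5 of the other pathway genes were called. With upper quartile factors the split was 748 higher and 830 lower, and with library size alone 751 and 1020, where the median of all genes shifted to −0.05 and −0.08. A threshold of 0.01 left 10 genes, 0 members and 0 pathway genes. Without a filter the numbers were 2947, 4 and 15, with the DESeq2 Wald test 3001, 4 and 15, and with limma on log2(FPKM + 0.5) 1232, 2 and 2. Leaving out each library in turn gave 90 to 1198 genes, 0 to 2 members and 0 to 8 pathway genes, with fewer libraries to estimate the spread. The replicate block gave 1531 genes, 4 members and 7 pathway genes. Libraries of the same number did not deviate together across genes (correlation 0.013 across 18530 genes). The labels do not say whether they are paired, and a single correlation cannot exclude pairing. DESeq2 size factors, upper quartile factors, library size alone, a filter of 1 CPM in 2 libraries and limma-voom each kept 4 member calls. No called member changed sign in any of 13 settings. Of these 13 settings, Mapk13 was called in 11, Map2k6 in 10, Mapkapk3 in 9 and Rps6ka5 in 8. Together they lost 14 calls, 2 with limma on FPKM and the others with a library left out. The 6 members not called in the main fit were called in none of the 13. The gain of Mapk13 in the share of p38 kinase FPKM was 7.60 percentage points, or 6.48 from counts without division by length. The marker counts without keratins were chosen after seeing the data. The 2 libraries per group limit the precision, and for Mapkapk5 so did its 47 to 68 counts.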
